A study of Mus musculus with 12 samples.

Results

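A set of 10 genes that mark megakaryocytes and platelets were followed in messenger RNA of mouse haematopoietic stem and progenitor cells (HSPCs), which live in the marrow and give rise to all blood cells. The members were taken by name as a set of megakaryocyte and platelet genes: Pf4, Ppbp, Vwf, Itga2b, Itgb3, Gp1bb, Gp9, Gp5, Gp6 and Slc6a4, which are 10 of the 54532 gene IDs in the deposited count table. The 12 libraries formed 4 groups of 3. Fresh, uncultured HSPCs came from young mice in 1 group and from aged mice in another, and HSPCs of aged mice were cultured in the remaining groups, either with vehicle or with uridine, a pyrimidine nucleoside. All groups are labelled wild type and bone marrow. The strain is uncertain, because the genotype label reads C57BL/6 in the 3 vehicle libraries and carries a different number in each of the other 9. The sources used here give no age, sort marker, culture time or uridine dose. Nothing in the labels ties a library to its own mouse or dish, so a p-value reflects how far these libraries scatter, and that scatter may be technical. Young cells were not cultured, so age and culture are compared only through the aged groups.

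Megakaryocytes are the large marrow cells that shed platelets into the blood. Platelets carry chemokines and adhesion proteins in alpha granules, serotonin in dense granules, and surface receptors for von Willebrand factor, collagen and fibrinogen that let them adhere and aggregate at a wound. Several of these genes are also active in stem cells that are biased towards the platelet lineage, and the integrin of Itga2b marks early progenitors as well as platelets.

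The promoters of 8 members are held in the RefSeq table for GRCm38.p6, all but Vwf and Itgb3. The 250 bases before the annotated start were searched on both strands for AGATAA with its variants TGATAA and also AGATAG and finally TGATAG, the letters that GATA factors prefer, and for AGGAAG with its variant CGGAAG, an ETS core. Both factor families are known regulators of megakaryocyte genes. Of the 8 windows, 4 held a GATA match, against 26.5% of 32851 windows of the same length, and 5 held an ETS match, against 39.2%. A match is a description of the letters and not a measured binding site. The windows printed here are those of Pf4, the member with the highest level per length after culture, Gp5, which held the most matches, and Gp6 and Slc6a4, both nearly without counts before culture. They are written 5′ to 3′ on the strand of the gene, with GATA and ETS matches on either strand in capitals. Their positions are chr5:90772185-90772434 on the plus strand for Pf4, chr16:30310782-30311031 on the minus strand for Gp5, chr7:4397745-4397994 on the minus strand for Gp6 and chr11:76998347-76998596 on the plus strand for Slc6a4.
Pf4: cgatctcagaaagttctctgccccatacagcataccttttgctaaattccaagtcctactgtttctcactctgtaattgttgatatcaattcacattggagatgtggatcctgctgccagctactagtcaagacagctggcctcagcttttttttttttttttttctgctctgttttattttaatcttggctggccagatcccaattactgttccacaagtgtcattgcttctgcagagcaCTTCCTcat
Gp5: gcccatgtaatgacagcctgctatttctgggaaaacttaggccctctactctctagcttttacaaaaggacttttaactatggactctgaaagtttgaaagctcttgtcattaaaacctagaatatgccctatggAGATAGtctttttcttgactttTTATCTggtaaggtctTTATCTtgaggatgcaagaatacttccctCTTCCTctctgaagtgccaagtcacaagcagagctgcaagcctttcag
Gp6: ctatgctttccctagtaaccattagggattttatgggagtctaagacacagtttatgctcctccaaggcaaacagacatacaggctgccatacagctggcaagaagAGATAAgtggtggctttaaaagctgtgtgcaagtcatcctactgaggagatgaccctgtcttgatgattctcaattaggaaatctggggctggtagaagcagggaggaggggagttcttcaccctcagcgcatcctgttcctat
Slc6a4: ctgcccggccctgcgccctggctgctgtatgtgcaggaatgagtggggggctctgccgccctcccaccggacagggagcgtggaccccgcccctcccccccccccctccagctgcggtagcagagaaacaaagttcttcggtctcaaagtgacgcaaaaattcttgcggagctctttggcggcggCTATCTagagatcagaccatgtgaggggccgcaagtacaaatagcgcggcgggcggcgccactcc
The Pf4 window held 1 ETS match close to the start and no GATA match. The Gp5 window held 3 GATA matches and 1 ETS match, and the windows of Gp6 and Slc6a4 held 1 GATA match each. The TATA letters TATAAA occurred in 1 of the 8 windows, that of Ppbp, with 2 matches, against 12.4% of all windows. TGTGGT, the core of RUNX sites, occurred in the window of Gp9 alone, against 14% of all windows.

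Each library held between 16785065 and 19025802 gene counts. A CPM value is a count divided by the TMM-adjusted library size; group values are means ± SD over 3 libraries, and levels of different genes are compared only as RPKM, which also divides by exon length. Calls are those of edgeR's quasi-likelihood test at an adjusted p under 0.05 over 16675 genes that passed a filter on low counts. The HSPC label was checked against 6 progenitor genes, whose summed level was 7207 to 7397 CPM in the young, 8080 to 8445 CPM in the aged, 3259 to 3370 CPM in the vehicle and 4719 to 4778 CPM in the uridine libraries. Between aged and vehicle cells, Kit and Cd34 were called higher, Mpo, Myb and Flt3 were called lower and Cd48 was not called. Mpo, a primary granule enzyme, made up most of the sum and went from 7254 to 2171 CPM. Other cells also left RNA. Immunoglobulin genes with Jchain took 21.6 to 21.9% of the counts in the aged uncultured libraries and 0.540 to 0.924% elsewhere. The summed level of 7 genes of maturing neutrophils was 5335 to 5553 CPM in the young, 546 to 587 CPM in the aged, 257 to 264 CPM in the vehicle and 1975 to 2048 CPM in the uridine libraries.

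The members were lowest in aged uncultured cells, higher in young ones, and far higher in both cultures. Their summed level was 200 to 205 CPM in the young libraries, 117 to 128 CPM in the aged, 1678 to 1685 CPM in the vehicle and 1115 to 1127 CPM in the uridine libraries. The same order, vehicle above uridine above young above aged, held for the means of 8 of the 9 members that passed the filter, and Gp9 differed only in that its aged mean lay above its young mean. Of these 9, Gp6 and Slc6a4 would not have passed on the uncultured libraries alone, so their inclusion rests on the cultures, where they are high. In bulk RNA, fewer cells of a type and less RNA per cell cannot be told apart.

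**Figure D1:**
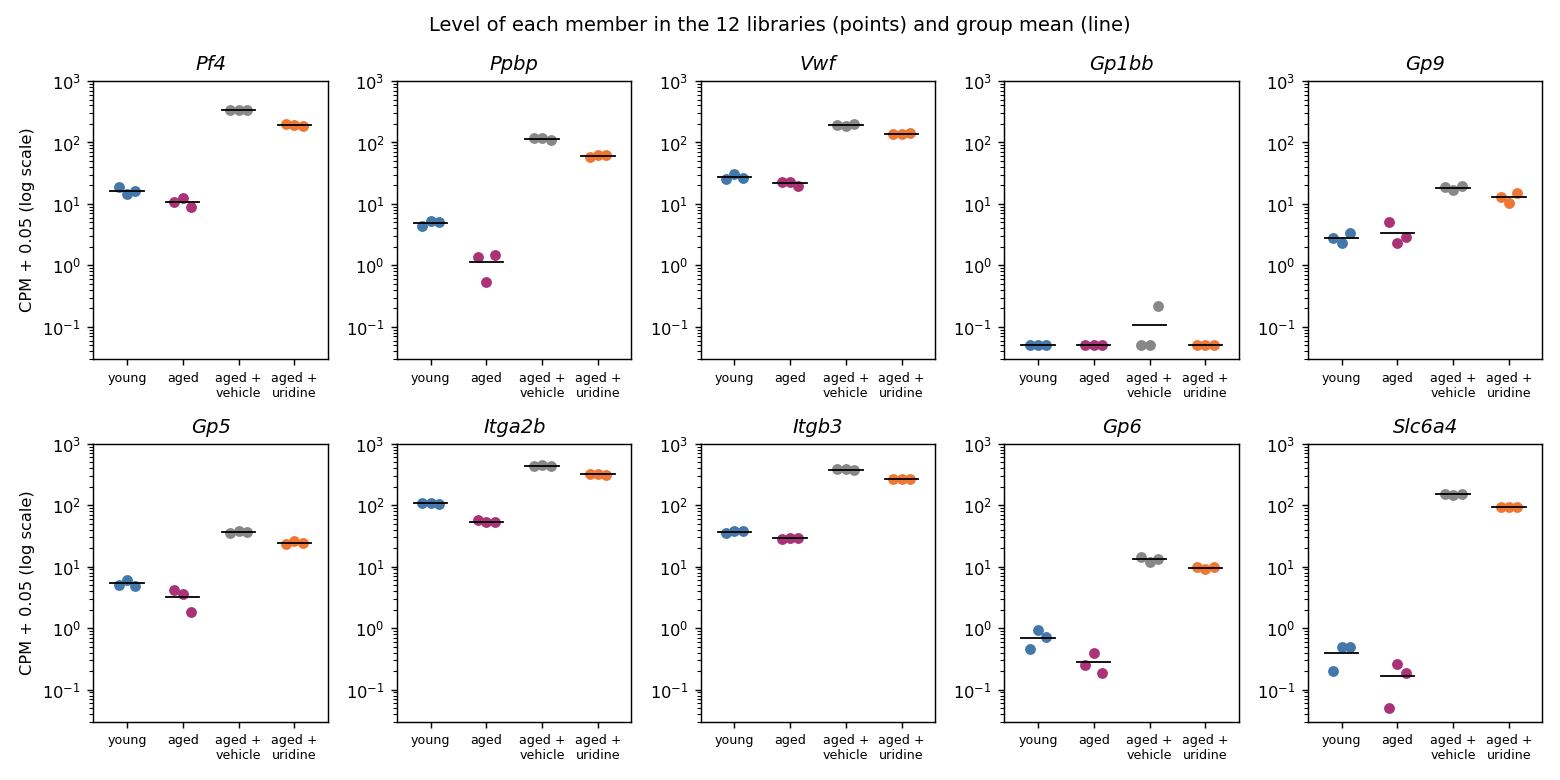
Level of each of the 10 members in the 12 libraries, as CPM plus 0.05 on a log axis, with 3 points per group and a line at the group mean. Both cultures stand above the uncultured cells for every member but Gp1bb, and the Slc6a4 panel has the largest step, from at most 0.438 CPM in the uncultured libraries to at least 94.4 CPM in the cultured ones.

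Vehicle culture was set against uncultured aged cells, a contrast that holds both culture and changes in other cells, among them the lower immunoglobulin share. All 9 tested members rose, with log2 fold changes of 2.44 to 10.29 and a median of 3.72, and the median over all genes tested was -0.01. Of all genes tested, 35.4% rose in this comparison, and 36.1% had vehicle libraries wholly above the aged ones, which held for 9 of the 9 members. Because the filter admitted Gp6 and Slc6a4 through the cultures, the count over the 9 is not support in itself.

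The chemokines of the alpha granule were among the 4 members with the largest fold changes. Pf4, platelet factor 4 (GRCm38 chromosome 5, 90772435 to 90773383), stood at 10.5, 12.4 and 8.89 CPM in the aged libraries and at 343, 336 and 332 CPM in the vehicle libraries. Its log2 fold change was 4.99 ± 0.06 (SE, edgeR adjusted p = 3.69e-38). The groups were far apart, and the vehicle level was 31.8 times the aged one. Ppbp, which encodes the precursor of the neutrophil-activating chemokine CXCL7 and ends 2371 bases before the start of Pf4, was listed with 20, 7 and 21 counts in the aged libraries, or 1.33, 0.487 and 1.45 CPM. In the vehicle libraries it reached 117, 116 and 112 CPM, a log2 fold change of 6.71 ± 0.12 (edgeR adjusted p = 1.86e-33). The ratio of the summed counts, scaled to library size, was 105, with a 95% interval of 79.3 to 143 that covers counting error only.

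Von Willebrand factor and the receptor chains that bind it had smaller fold changes than the chemokines, a difference that was not tested. Vwf (chromosome 6, 125546774 to 125686679), the large adhesion protein that tethers platelets, was at 22.4, 23.0 and 19.9 CPM in the aged and at 189, 187 and 200 CPM in the vehicle libraries, a log2 fold change of 3.14 ± 0.06 (edgeR adjusted p = 5e-33). The receptor complex is made of GPIb alpha, GPIb beta, GPIX and GPV, encoded by Gp1ba, Gp1bb, Gp9 and Gp5. Gp9 (chromosome 6, 87778072 to 87779768) went from 4.99, 2.23 and 2.82 CPM to 18.9, 16.8 and 19.4 CPM, the smallest change among the 9 at 2.44 ± 0.18 on the log2 scale (edgeR adjusted p = 2.13e-14). Gp5 (chromosome 16, 30307685 to 30310779) went from 4.19, 3.48 and 1.79 CPM to 34.8, 38.2 and 37.2 CPM, a log2 fold change of 3.53 ± 0.14 (edgeR adjusted p = 2.99e-22). In all 3 genes the lowest vehicle library was well above the highest aged one. Gp1ba, no member but the ligand-binding chain, moved from 3.72 ± 0.61 to 23.6 ± 2.0 CPM (SD, n = 3), a log2 fold change of 2.67. Per length, the 3 measured chains stood at 1.37 RPKM (Gp1ba), 3.80 RPKM (Gp9) and 1.44 RPKM (Gp5) in aged cells and at 8.69, 20.8 and 16.7 RPKM after vehicle culture. In young cells Gp9 and Gp5 stood at 3.13 and 2.40 RPKM.

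The fourth chain could not be followed. Gp1bb (chromosome 16, 18620317 to 18622403) had 3 counts in vehicle replicate 3 and 0 counts in the other 11 libraries, so it did not pass the filter and no fold is given, since 0 allows up to 3 counts over a group. Of its 2087 annotated exon bases, 1902 also belong to Sept5 and 867 to Gm49601, both on the same strand. How reads of these shared bases were counted is not given in the sources used here, and the part of this overlap in the zeros was not tested. The level of Sept5 was 5.98 ± 0.69 CPM in young, 1.78 ± 0.50 in aged, 1.63 ± 0.46 in vehicle and 2.62 ± 0.41 in uridine libraries (SD, n = 3). Gm49601 was below 1 CPM in every library. Neither gene was called different between vehicle and aged cells (edgeR adjusted p = 0.698 for Sept5 and 0.0757 for Gm49601).

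Both chains of the fibrinogen receptor rose in culture. Itga2b (chromosome 11, 102453297 to 102470122), integrin alpha IIb, rose from 56.3, 52.3 and 52.9 CPM to 431, 442 and 440 CPM, a log2 fold change of 3.02 ± 0.04 (edgeR adjusted p = 3.67e-39). Itgb3 (chromosome 11, 104608000 to 104670476), its partner integrin beta 3, rose from 27.8, 29.6 and 28.9 CPM to 382, 382 and 378 CPM, a log2 fold change of 3.72 ± 0.04 (edgeR adjusted p = 2.87e-40). Per length, Itga2b stood at 3.13 times Itgb3 in young cells, 2.02 times in aged cells, 1.24 times after vehicle and 1.28 times after uridine culture. The levels behind these ratios were 19.6 and 6.25 RPKM, 9.87 and 4.88 RPKM, 80.3 and 64.5 RPKM, and 58.5 and 45.7 RPKM. The pair thus lay nearer to equal levels in the cultures than in fresh cells. Itgb3 also pairs with integrin alpha V, whose gene Itgav rose from 24.7 ± 3.0 to 55.5 ± 0.6 CPM (log2 fold change 1.17, edgeR adjusted p = 1.54e-15).

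Gp6 and Slc6a4 were near the detection limit before culture. Gp6 (chromosome 7, 4363965 to 4397744), the collagen receptor, had 3, 5 and 2 counts in the aged libraries and 275, 214 and 236 counts in the vehicle libraries. The scaled ratio of counts was 58.0, with a 95% counting interval of 31.3 to 121. Its signalling partner Fcer1g, the Fc receptor gamma chain that many myeloid cells also express, rose from 42.7 ± 0.4 to 200.2 ± 2.3 CPM (log2 fold change 2.23, edgeR adjusted p = 2.16e-32). Slc6a4 (chromosome 11, 76998603 to 77032340), the serotonin transporter that fills platelets with serotonin, had 0, 3 and 2 counts in the aged libraries and 2888, 2687 and 2715 counts in the vehicle libraries. The scaled ratio was 1325, with a 95% counting interval of 568 to 4083, and the edgeR log2 fold change was 10.29 ± 0.15 (edgeR adjusted p = 7.42e-37). Leaving out aged replicate 2 moved that log2 fold change to 10.99. No other member changed this much in this comparison, and the next largest change was that of Ppbp.

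**Figure D2:**
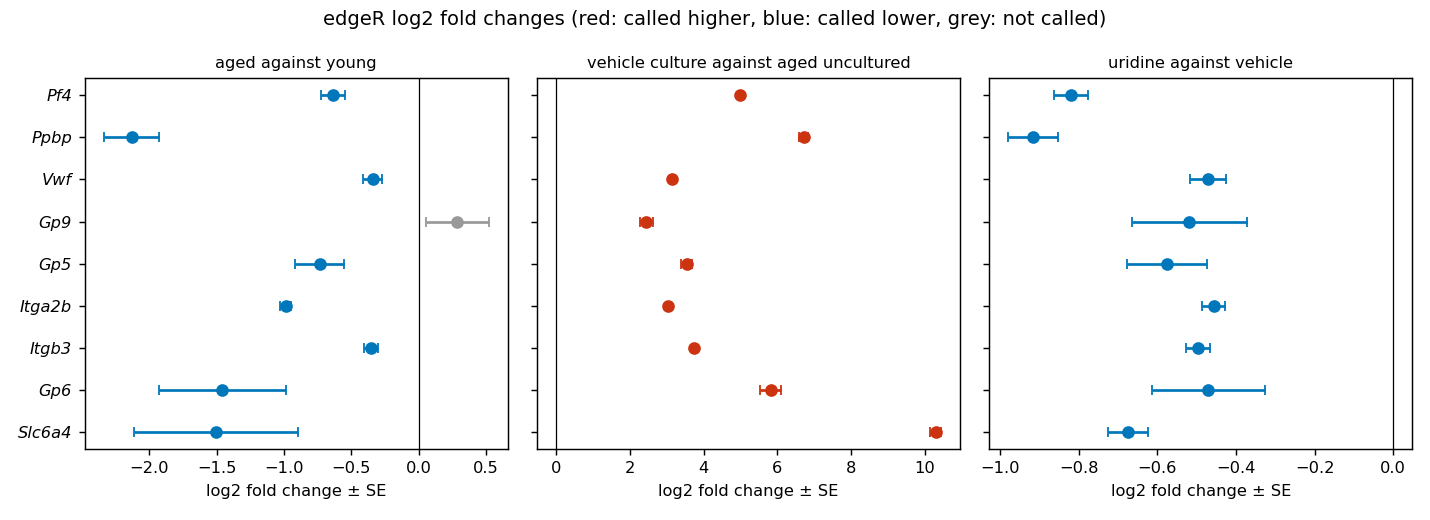
edgeR log2 fold changes with SE bars for the 9 tested members in 3 comparisons, each panel with its own axis: aged against young, vehicle culture against aged uncultured, and uridine against vehicle. In the middle panel every member lies right of 0, from 2.44 for Gp9 to 10.29 for Slc6a4, and in the right panel every member lies left of 0, from -0.92 for Ppbp to -0.46 for Itga2b.

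The other genes of the platelet programme were counted by list, and their medians were not tested against that of the members. Of all 16675 genes tested, 5903 rose and 5845 fell in this comparison. Of 20 further platelet receptors and surface proteins, 17 rose, 2 were not called and 1 fell (the adrenergic receptor Adra2a, by 2.23 on the log2 scale), and the median log2 fold change was 1.86. Among them were the integrin subunit Itga6, from 67.0 ± 2.3 to 236 ± 2.0 CPM, the tetraspanin Cd9, from 36.6 ± 1.7 to 150 ± 4.2 CPM, and F2rl2, a thrombin receptor cofactor, from 1.48 ± 0.17 to 28.1 ± 3.2 CPM. Mpig6b, a megakaryocyte inhibitory receptor named for its zero, had 0 counts in the aged and 242 in the vehicle libraries, and was at least 64.5-fold higher, taking 3 counts over the group for the zero. Of 15 granule genes, 12 rose and 2 fell, with a median of 0.87. Thbs1, the adhesion protein thrombospondin 1, rose from 15.6 ± 3.1 to 148 ± 1.8 CPM. Rab27b, which serves granule transport, went from 5.22 ± 1.15 to 95.5 ± 6.1 CPM, and Srgn, the granule proteoglycan serglycin, fell from 970 ± 14 to 468 ± 1.4 CPM; F13a1 fell by 0.62 on the log2 scale. Selp, the alpha granule adhesion protein P-selectin, was 22.1 ± 2.3 CPM in aged and 53.1 ± 2.4 CPM in vehicle libraries.

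Transcription factors and cytokine signalling were counted in the same way. Of 13 transcription factors of megakaryocytes, 9 rose and 3 fell (Lyl1, Mef2c and Srf), and the median log2 fold change was 0.73. Gfi1b, a transcriptional repressor that acts within the erythroid and megakaryocyte lineages, rose from 8.08 ± 0.99 to 55.4 ± 2.1 CPM. Nfe2, which drives platelet formation, rose from 77.9 ± 3.4 to 160.0 ± 6.7 CPM. Of 7 tested genes of thrombopoietin signalling, 4 rose and 1 fell (the inhibitory adaptor Sh2b3), with a median of 0.26. Of 15 tested cytoskeleton and signalling genes, 10 rose and 3 fell, with a median of 0.35; Plek, the platelet kinase substrate pleckstrin, rose from 154 ± 5 to 553 ± 11 CPM, and Rasgrp2, an activator of platelet integrins, fell from 316 to 147 CPM, as did Syk and Stim1 by 0.88 and 0.21 on the log2 scale. All 3 genes of eicosanoid synthesis rose, among them the cyclooxygenase gene Ptgs1, from 36.9 ± 3.3 to 90.0 ± 2.6 CPM. Serotonin handling did not follow Slc6a4 in size: 2 of 4 tested genes rose and 2 were not called, the vesicle transporter Slc18a2 went from 25.5 ± 1.3 to 50.3 ± 2.8 CPM, and Tph1, the gene of serotonin synthesis in the periphery, had 0 counts in aged and 6 in vehicle libraries.

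**Figure D3:**
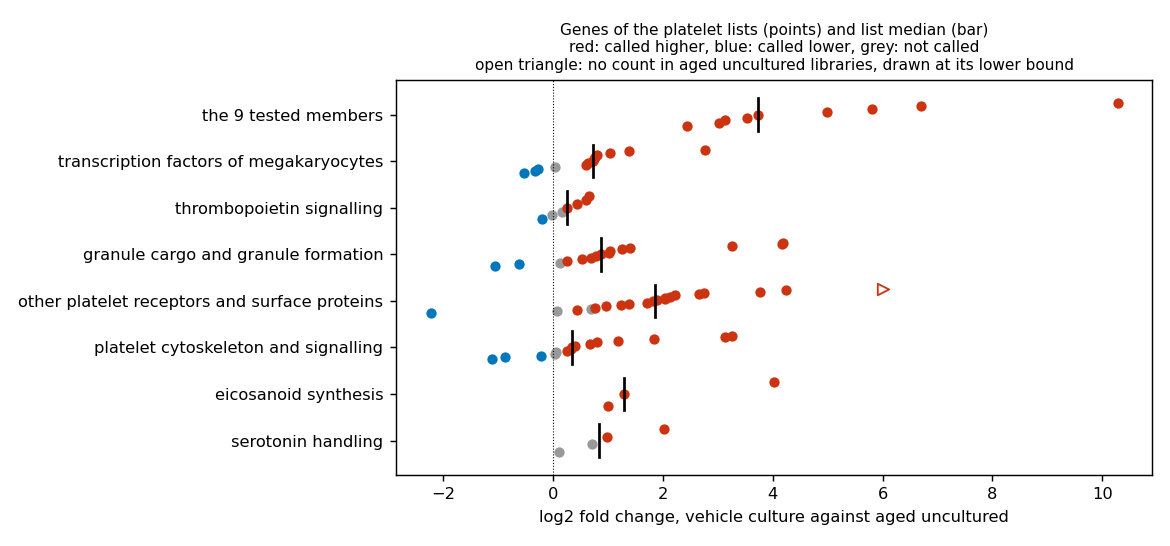
log2 fold changes of vehicle culture against aged uncultured cells for the 9 tested members and for 7 lists of platelet genes, with a point per tested gene and a bar at the median. The members have the highest median at 3.72, receptors follow at 1.86, and thrombopoietin signalling is lowest at 0.26; Mpig6b is drawn at its lower bound of 6.01.

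Markers of other cells moved in the same comparison. The summed level of 9 macrophage genes went from 131 to 142 CPM in the aged to 667 to 688 CPM in the vehicle libraries, with 5 genes higher, 3 lower and 1 not called, and Adgre1, Csf1r, Cd68 and Mertk were among those that rose. The complement genes C1qa, C1qb and C1qc fell, from 4.88 to 0.813 CPM, from 6.44 to 4.60 CPM and from 4.97 to 3.08 CPM. The 8 genes of basophils and mast cells, which share Gata2 with the transcription factor list, went from 336 to 343 CPM to 531 to 541 CPM, with 6 higher and 1 lower. The 8 endothelial genes, a cell type that also makes von Willebrand factor, went from 196 to 208 CPM to 315 to 322 CPM, with 4 higher and 3 lower. Within that list Kdr rose to 43.5 CPM, and Cdh5 and Emcn were at 0.364 and 0.308 CPM in the vehicle libraries, which lay below their aged levels of 2.03 and 2.77 CPM. The 9 erythroid genes all fell, to a summed 6.98 to 10.1 CPM with Slc4a1 at 0. All 8 genes of B and plasma cells and all 7 genes of maturing neutrophils fell too. Of 8 stem cell genes, 1 rose, 3 fell and 4 were not called, while their sum went from 364 to 373 CPM to 540 to 560 CPM. Ly6a made up most of that sum, at 247 CPM in the aged and 455 CPM in the vehicle libraries. The part of these cells in the rise of the members was not tested.

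**Figure D4:**
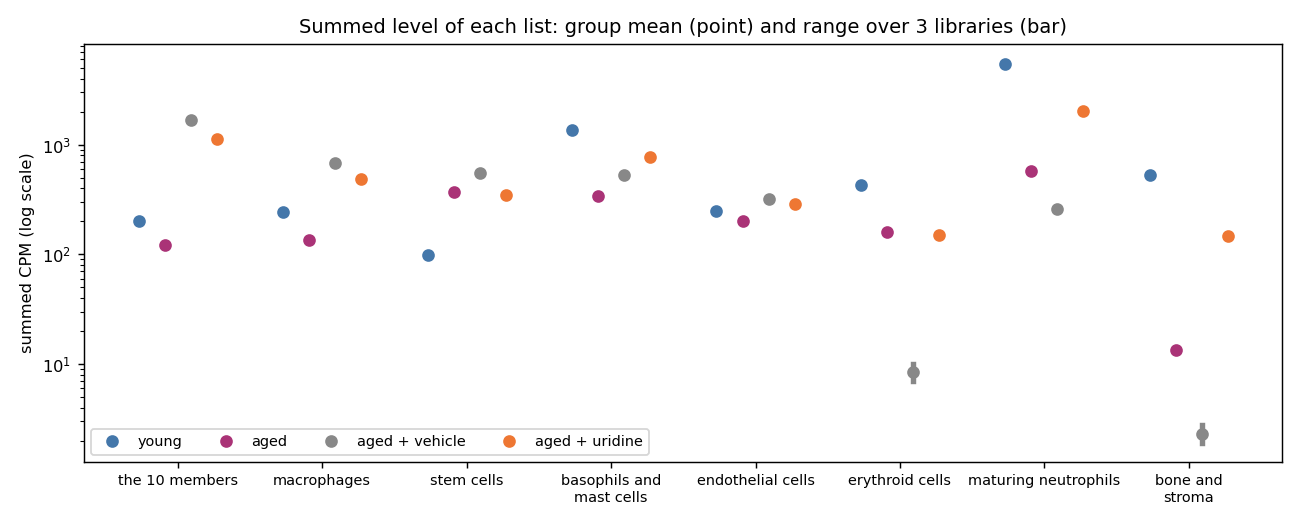
Summed CPM, on a log axis, of the 10 members and of marker lists of other cell types, with a point at the group mean and a bar over the range of 3 libraries. The members and the macrophage, stem cell and endothelial lists are highest in the vehicle libraries, and the erythroid, neutrophil and stroma lists are lowest there.

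The comparison of aged with young uncultured cells addressed ageing. Of the 9 tested members 8 were lower in aged cells and Gp9 was not called, with a median log2 fold change of -0.73 against 0.02 over all genes. Among all genes tested, 32.1% were called lower, and 33.1% had aged libraries wholly below the young ones, which held for 7 members. Ppbp had the largest drop, from 4.30, 5.20 and 4.98 CPM in the young libraries to 1.33, 0.487 and 1.45 CPM in the aged, with a log2 fold change of -2.13 ± 0.21 (edgeR adjusted p = 2.33e-11). Pf4 stood at 18.6, 14.4 and 16.2 CPM in young and at 10.5, 12.4 and 8.89 CPM in aged cells, with a log2 fold change of -0.64 ± 0.09 (edgeR adjusted p = 1.74e-07). Both chemokines were thus lower in every aged library than in any young one.

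The fibrinogen receptor chains fell by unequal amounts. Itga2b was at 109, 107 and 105 CPM in the young and at 56.3, 52.3 and 52.9 CPM in the aged libraries, a log2 fold change of -0.99 ± 0.04 (edgeR adjusted p = 1.21e-22). Itgb3 was at 34.6, 37.7 and 38.3 CPM and at 27.8, 29.6 and 28.9 CPM, a log2 fold change of -0.36 ± 0.05 (edgeR adjusted p = 1.01e-07). In both genes the groups were apart, and the difference between the 2 log2 fold changes was not tested. Vwf fell by 0.34 ± 0.07 on the log2 scale (edgeR adjusted p = 7.26e-05), from 25.2, 31.1 and 26.8 CPM to 22.4, 23.0 and 19.9 CPM. Gp5 fell by 0.73 ± 0.18 on the log2 scale (edgeR adjusted p = 0.000647), from 5.05, 5.97 and 4.81 CPM to 4.19, 3.48 and 1.79 CPM.

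The 3 remaining members were weakly measured here. Gp9 was at 2.70, 2.24 and 3.34 CPM in the young and 4.99, 2.23 and 2.82 CPM in the aged libraries, with a log2 fold change of 0.29 ± 0.23 (edgeR adjusted p = 0.282), which was -0.13 without aged replicate 1. Gp6 had 8, 16 and 12 counts in the young and 3, 5 and 2 in the aged libraries, with a log2 fold change of -1.46 (edgeR adjusted p = 0.0072). Slc6a4 had 3, 8 and 8 counts in the young and 0, 3 and 2 in the aged libraries, with an aged level at 35.2% of the young one in the edgeR fit (edgeR adjusted p = 0.0303), and its scaled levels overlapped between the groups. For Gp6, the adjusted p was 0.0559 with limma voom and 0.0502 without young replicate 2. For Slc6a4 it was 0.0884 with limma voom, 0.108 without young replicate 2, 0.108 without young replicate 3 and 0.219 without aged replicate 1, and the log2 fold change was -2.20 without aged replicate 2.

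Other platelet genes went both ways with age, as did all 16675 genes tested, of which 5535 were higher and 5354 lower. Of the 20 further receptors and surface proteins, 10 were lower and 4 higher (F2rl3, Adra2a, Esam and Pear1), and Fcer1g fell from 90.2 ± 3.1 to 42.7 ± 0.4 CPM and Treml1, a platelet granule membrane receptor, from 3.18 ± 0.43 to 1.07 ± 0.49 CPM. Gp1ba was at 3.77 ± 0.60 and 3.72 ± 0.61 CPM (edgeR adjusted p = 0.908). Of 15 granule genes, 7 were higher and 7 lower; Thbs1 fell from 132 ± 6 to 15.6 ± 3.1 CPM, and Selp was at 6.20 ± 0.56 CPM in the young and 22.1 ± 2.3 CPM in the aged libraries. Of 13 transcription factors, 7 were lower and 3 higher (Fli1, Lyl1 and Mef2c), and Runx1, Gata2 and Zfpm1 fell by 0.80, 0.73 and 0.89 on the log2 scale. Of the 7 tested genes of thrombopoietin signalling, 3 were higher and 4 were lower, among them the kinase gene Jak2 by a log2 fold change of -0.46. The 15 tested cytoskeleton and signalling genes split into 5 higher, 5 lower and 5 not called. Of the eicosanoid genes only Tbxas1, thromboxane synthase, was called, with a log2 fold change of 0.32, and of the 4 tested serotonin genes Slc18a1 and Slc18a2 were lower. Markers of other cells moved in this comparison too. All 9 erythroid genes, all 8 basophil and mast cell genes and all 7 neutrophil genes were lower in aged cells, 7 of 8 stem cell genes were higher, and all 8 genes of B and plasma cells were higher. The part of the other cells in the lower member levels was not tested. Leaving immunoglobulin genes and Jchain out before scaling changed no member's call in any of the 6 comparisons.

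Uridine was compared with vehicle in cultured aged cells, which is the treatment the study is named for. All 9 tested members were lower with uridine, with log2 fold changes of -0.92 to -0.46 and a median of -0.52 against -0.0011 over all genes. Of all genes tested, 18.1% were called lower, and 24.8% had uridine libraries wholly below the vehicle ones, which held for all 9 members. The vehicle libraries serve both as the reference here and as the test group against aged cells, so the comparisons are not independent.

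The chemokines had the largest log2 fold changes among the members in this comparison. Pf4 was at 343, 336 and 332 CPM with vehicle and at 196, 192 and 185 CPM with uridine, a log2 fold change of -0.82 ± 0.04 (edgeR adjusted p = 5.08e-18), or 56.7% of the vehicle level. Ppbp was at 117, 116 and 112 CPM and at 57.7, 62.6 and 62.6 CPM, a log2 fold change of -0.92 ± 0.06 (edgeR adjusted p = 1.44e-14), or 53.0%. In both, the 3 uridine libraries lay close together and well below vehicle. Slc6a4 followed, at 152, 148 and 153 CPM with vehicle and 94.6, 94.7 and 94.4 CPM with uridine, a log2 fold change of -0.67 ± 0.05 (edgeR adjusted p = 2.14e-13).

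The adhesion receptors and Vwf formed a narrower group. Vwf was at 137, 136 and 143 CPM with uridine, a log2 fold change of -0.47 ± 0.04 (edgeR adjusted p = 7.87e-11). Itga2b was at 322, 324 and 310 CPM, with -0.46 ± 0.03 (edgeR adjusted p = 3.16e-15). Itgb3 was at 268, 272 and 270 CPM, with -0.50 ± 0.03 (edgeR adjusted p = 1.25e-15). These 3 genes stood at 70.9 to 72.9% of their vehicle levels. Gp5 was at 23.3, 26.5 and 24.2 CPM, with -0.58 ± 0.10 (edgeR adjusted p = 2.14e-05). Gp9 was at 13.1, 10.3 and 15.0 CPM, with -0.52 ± 0.15 (edgeR adjusted p = 0.00463), which was 0.0599 without uridine replicate 2. Gp6 was at 9.80, 9.06 and 9.70 CPM, with -0.47 ± 0.14 (edgeR adjusted p = 0.00858), which was 0.0749 without vehicle replicate 1. No uridine library of these genes reached the lowest vehicle library.

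Related genes mostly moved the same way, where 3018 of all 16675 genes tested were lower and 3342 higher. Of the 20 further receptors and surface proteins, 14 were lower and 0 higher in the edgeR test, with a median of -0.51, and Fcer1g fell to 140 ± 6 CPM, Cd9 to 105 ± 3 CPM and Gp1ba to 16.7 ± 0.8 CPM. Itga6 fell by 0.25 on the log2 scale. Of 15 granule genes, 8 were lower and 2 higher, with Rab27b at 65.7 ± 1.0 CPM and F13a1, the clot-stabilising factor XIII A chain, rising from 220 to 331 CPM, and F5, coagulation factor V, rising by 0.31 on the log2 scale. Of 13 transcription factors, 5 were lower, 1 was higher (Srf) and 7 were not called, and Nfe2 and Gfi1b fell by 0.39 and 0.61 on the log2 scale. Of 15 cytoskeleton and signalling genes 11 were lower and 3 higher, and Rasgrp2 rose by 0.56 on the log2 scale, with smaller rises of Stim1 and Tln1. Of the 7 tested genes of thrombopoietin signalling, Lyn was lower, Cbl and Stat5b were higher and 4 were not called. Of the eicosanoid genes Ptgs1 and Tbxas1 were lower, and of the 4 tested serotonin genes Slc18a2 was lower, by 0.16 on the log2 scale, and 3 were not called.

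Markers of other cells moved both ways with uridine. All 9 erythroid genes and all 7 neutrophil genes were higher with uridine than with vehicle, and the summed erythroid level was 148 to 150 CPM against 6.98 to 10.1 CPM, beside 429 to 433 CPM in young and 156 to 165 CPM in aged uncultured cells. Of the 9 macrophage genes 5 were lower, 1 was higher (C1qa) and 3 were not called, and their sum went from 667 to 688 CPM with vehicle to 476 to 495 CPM with uridine. Of the 8 stem cell genes 3 were lower (Ly6a, Procr and Slamf1), 1 was higher (Hlf) and 4 were not called, and their sum went from 540 to 560 CPM to 336 to 359 CPM. The part of these cells in the lower member levels was not tested. Col1a1, a bone and stroma collagen, was at 272 CPM in young, 0.236 CPM in vehicle and 76.7 CPM in uridine libraries. Over 131 genes with at least 5 CPM in young cells and at least 10 times their vehicle level, the uridine level lay a median of 33.6% of the way from vehicle to young, with quartiles of 31.0 and 36.0%. The members can be placed on the same scale. Vwf lay 32.5% of the way, Itgb3 32.3%, Itga2b 35.9%, Gp9 35.6%, Gp5 38.4%, Gp6 29.2%, Slc6a4 37.4%, Pf4 45.5% and Ppbp 49.0%. A mean of young and vehicle levels weighted by that median share came within 10% of the measured uridine level for 7 of the 9 members, and for 80.0% of 10380 protein-coding genes at 5 CPM or more. It did so for 45% of 411 genes at least 4 times higher in vehicle than in young cells. Where young and vehicle levels are alike, the weight hardly changes the weighted mean, so the 80.0% says little about the share. Pf4 was at 0.834 times and Ppbp at 0.782 times the weighted mean, and all 3 uridine libraries of each were below it.

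**Figure D5:**
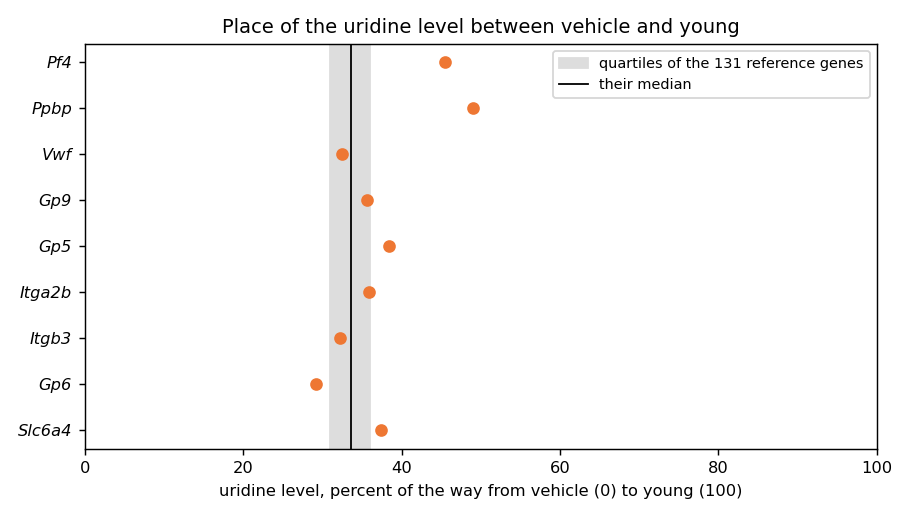
Place of the uridine level of the 9 tested members on a scale from the vehicle level (0%) to the young level (100%), with the median (line) and quartiles (band) of 131 genes high in young and low in vehicle cells. Most members lie within or near the band of 31.0 to 36.0%, and Pf4 and Ppbp lie to the right of it at 45.5% and 49.0%.

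The count of lower members was also taken with a young-like share, the median of 33.6%, subtracted from the uridine libraries. When that share of the mean young level was taken off each uridine library, an alternative added after seeing the data, 2 members were lower than vehicle in place of 9. The libraries were then scaled again, which lifts genes that lose few counts to the subtraction. The members are such genes, as their young levels are low beside their uridine levels. Smaller drops were thus largely built into this alternative, whose share was also taken from these same libraries. Its count of lower members is therefore no test of the drop. Of 16663 genes tested in that way, 1690 (10.1%) were lower and 1060 were higher. The 2 members still lower were Pf4, with a log2 fold change of -0.29 (edgeR adjusted p = 0.000164), and Ppbp, with -0.38 (edgeR adjusted p = 0.000298). For the other 7, the values lay between -0.11 and 0.07 and none was called. For all 9 members, Pf4 and Ppbp included, a response to uridine and a smaller share of vehicle-like RNA in the uridine libraries cannot be told apart here. Among the same 411 genes, the uridine level was a median of 63.8% of the vehicle level, with quartiles of 58.2 and 70.5%. By the ratio of the uridine level to the weighted mean, 104 of them lay below Pf4.

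Against the uncultured cells, the uridine cultures remained high. All 9 tested members were above aged uncultured cells, with a median log2 fold change of 3.23, where 35.8% of all genes rose. All 9 were also above young uncultured cells, with a median of 2.87, where 26.2% of all genes were higher, and vehicle cultures were above young cells for all 9 with a median of 3.37, where 33.3% were higher. Against young cells, the uridine log2 fold changes ran from 1.58 for Itga2b to 8.11 for Slc6a4. These comparisons share their groups with those above and add the order of the levels only. Gp6 and Slc6a4 again passed the filter only through the cultures, so the counts over the 9 are not support in themselves.

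The members differed over the 12 libraries in the size of their changes. The distance used here was not scaled to that size, so it reflects fold size as well as shape. By the root mean square difference of log2 levels, each centred on its own mean, Vwf lay closest to Itgb3 at 0.29 and to Gp5 at 0.30, and Pf4 lay closer to Gp6, at 0.48, than to its neighbour Ppbp, at 0.86. Itga2b and Itgb3, whose proteins form 1 receptor, differed by 0.55. Slc6a4 was the farthest from the rest, at 2.11 from Ppbp and 3.51 from Gp9. Its distances and those of Gp6 rest partly on few counts in uncultured libraries, beside the 0.05 CPM added. Among 12212 other protein-coding genes with a mean of at least 1 CPM, the profile nearest to Pf4 was that of Oasl1 (0.17), the one nearest to Ppbp that of Vcan (0.22), and the one nearest to Vwf that of Sqle (0.11). Itga2b was nearest to Slc39a10 (0.12), Itgb3 to Hmgcs1 (0.12), Gp5 to Rbpms2 (0.25) and Gp6 to Rtp4 (0.33). For Slc6a4 the nearest was Saa3 at 0.74, so no other gene came as close to it as to the other members. Adgre1, a macrophage gene, was among the 3 nearest to Vwf at 0.13, and was at 14.8, 13.0, 110 and 73.8 CPM in the young, aged, vehicle and uridine groups.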

How the data were processed

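Polyadenylated RNA of the HSPCs was extracted with Trizol and sequenced in read pairs of 150 bp (NovaSeq), per the labels' protocols. HISAT2 2.0.5 and the mm10 build are named in the submitters' processing notes. How reads were counted, and whether strand was used, is not given in the sources used here. The authors deposited raw read counts per gene, in which 54495 of 54532 IDs matched a symbol in GENCODE M21. Groups came from the sample titles.

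Genes were kept by filterByExpr over the 4 groups, which left 16675, and all 12 libraries entered 1 model of the 4 group means in edgeR 4.0.16 (TMM factors, quasi-likelihood F-test, Benjamini-Hochberg adjustment, threshold 0.05, R 4.3.3), which gave 6 comparisons. The fit was tested on simulated data. RPKM used summed exon length. The genes high in young or in vehicle cells were chosen with a floor of 0.05 CPM on the lower level. For the profile distances, 0.05 CPM was added before the log2. Within groups, the 12 pairs of libraries differed beyond counting noise (chi-square per degree of freedom 2.27 to 3.94), and 0 pairs were identical. Alternatives were DESeq2 1.42.0, limma voom 3.58.1, other scaling and filters, a fit of 6 libraries, a replicate block, immunoglobulin genes left out, and each library left out. Members and lists were chosen with earlier results of these data known. Named genes of a list were up to 4 called in a comparison with the smallest p, partners or receptor subunits of members, and the genes nearest in profile to each member; Sept5 and Gm49601, which overlap a member, and, after their values were seen, Mpig6b and the single genes that went against their list were named besides. Coordinates are from GENCODE M21 on GRCm38, and promoter sequences are from RefSeq.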

Additional observations from a re-analysis of the deposited data

How the results depend on the processing

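Across the 6 comparisons, 801 of 817 values of single members under the alternatives kept their direction and their side of the threshold, 12 kept their direction but were no longer called, and 4 changed sign. With the young-like share subtracted from the uridine libraries, 2 members were lower than vehicle, and Vwf, Itgb3 and Gp6 stood at 0.0027, 0.0090 and 0.073 on the log2 scale. The subtraction itself takes counts off these libraries, and the new scaling then lifts genes that lost few of them. Smaller drops were thus largely built in. Leaving out 1 library at a time, the log2 fold change of Gp9 between aged and young cells ran from -0.13 to 0.51, and the cause was not tested. No other change of tool, scaling or filter moved a count of called members by over 1.5 times. The replicate numbers did not pair the libraries: of 18 pairs with the same number 0 correlated above 0.1 (-0.0412 to 0.0474), and 2 of 12 libraries correlated best with their own number. With the replicate block, no member's call changed in any comparison. The counts were 8 members lower in aged than young cells, 9 higher in vehicle than aged cells and 9 lower with uridine than vehicle. Among all 16675 genes in that fit, the matching counts were 5318, 5882 and 2961. Depth limits Gp6 and Slc6a4 in uncultured cells, where no library held more than 16 counts of either gene.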
